A study of Arabidopsis thaliana with 16 samples.

Results

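The influence of cycloheximide (CHX, an inhibitor of protein synthesis) on the auxin response of Arabidopsis roots was examined with all 16 of the 16 arrays of the series. The quantity of interest was an interaction: the change caused by naphthaleneacetic acid (NAA, a synthetic auxin) in the presence of CHX minus the change caused by NAA in its absence. Every root carried gPUCHI:GR in the puchi-1 mutant, so a fusion of the AP2/ERF transcription factor PUCHI with a glucocorticoid receptor domain, expressed from PUCHI's own regulatory region, stood in for the missing factor. No root without the transgene or with native PUCHI was analysed here, and each value holds for this line only. Seedlings were 5 days old, and roots were collected 4 h after the start of treatment. The conditions were NAA (1 µM) with CHX (10 µM), CHX without NAA, NAA without CHX, and neither, where the mock roots, without any of the compounds, received 0.1% DMSO. Each condition was set up with and without 2 µM dexamethasone (DEX), which lets the fusion protein enter the nucleus, giving 8 groups of 2 replicates. A condition therefore had 4 arrays, 2 with DEX and 2 without, and wherever 4 levels are listed below, the 2 arrays with DEX come before the 2 without.

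As background, auxin acts by joining TIR1/AFB receptor proteins to Aux/IAA repressors, which are then degraded and release ARF transcription factors that are already present in the cell. Direct targets of ARFs can thus respond while translation is blocked, whereas later steps of the cascade wait for newly made regulators. Aux/IAA proteins and several messenger RNAs are short-lived, and many early response genes are known to accumulate transcript when protein synthesis is inhibited even without added hormone. In roots, auxin is best known for starting lateral roots through LBD transcription factors, in whose primordia PUCHI acts, and for slowing elongation growth.

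Levels are given as log2(intensity + 16), where a probe set with an intensity of 0 stands at 4, so changes of dim genes are understated. A change was called at a limma adjusted p under 0.05 over all 22746 probe sets that are not controls. The array medians lay between 7.58 and 7.68 on this scale, and Pearson's r between replicates was 0.983 to 0.989 over all probe sets, although genes are no replicates of one another. Root identity was visible in PYK10, an abundant root beta-glucosidase, whose level of 14.69 in roots with neither NAA nor CHX exceeded 99.97% of probe sets. The 5 measured green tissue markers stood at 6.16 (LHCB4.3) to 9.30 (RCA, Rubisco activase) in the same roots. The 3'/5' signal ratio of GAPDH, a sign of RNA integrity, was 1.04 to 1.27 with NAA and CHX and 0.951 to 0.984 with CHX, and 1.10 to 1.19 with NAA and 1.02 to 1.14 with neither. The GAPDH ranges overlapped between the states without CHX and not between those with CHX. The same ratio of actin was higher, at 2.69 to 3.65 with NAA and CHX and 2.13 to 2.74 with CHX. Without CHX the actin ratio was 3.13 to 3.53 with NAA and 2.74 to 3.45 with neither. The actin ranges overlapped in both CHX states. The part of these ratios in the results was not tested. The bacterial hybridisation control bioB, a mean over its 3 probe sets, had an intensity of 81.1 in NAA replicate 2 and of 383 to 611 in the other 15 arrays.

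CHX removed or shrank most of the called auxin responses. Without CHX, NAA raised 4321 probe sets (19.0% of all tested) and lowered 4296 (18.9%). With CHX, NAA raised 298 (1.31%) and lowered 680 (2.99%). At a change of at least 2-fold the counts were 28 rises and 54 falls with CHX, against 747 rises and 1005 falls without CHX. The interaction itself was called below 0 for 2856 probe sets (12.6%), where the NAA change was lower with CHX, and above 0 for 2700 (11.9%), where it was higher. Of these, 787 and 876 differed at least 2-fold. The median interaction over all probe sets was -0.00. In whole roots, fewer cells of a type and less RNA per cell cannot be told apart, and the arrays were scaled to a common level, so a shift of all transcripts would not be seen.

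Probe sets were sorted by which of the NAA changes and the interaction were called. A response was lost when NAA acted without CHX, the interaction ran the other way and no NAA change was called with CHX, which held for 2512 rises and 2259 falls. It was reduced when NAA still acted in the same direction by a smaller amount, in 75 rises and 199 falls. It was kept when both NAA changes were called in the same direction, the interaction was not called and its 95% interval lay between -1 and 1, in 84 rises and 258 falls. It was reversed in 64 rises and 43 falls, enlarged in 4 falls, and present only with CHX in 46 rises and 79 falls. The remaining 17123 probe sets, among them 3104 with a called NAA change without CHX and no other call, fell in no class. Of the NAA rises 58.1% were lost, and of the NAA falls 52.6%. A lost response is not proof of no response: in 2131 of the 2512 lost rises and 1887 of the 2259 lost falls, the 95% interval of the NAA change with CHX stayed below 50% of the change without CHX, and in the others it reached further. On the linear intensity scale, 2725 of the 2856 interactions below 0 and 2601 of the 2700 above 0 had the same sign.

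**Figure D1:**
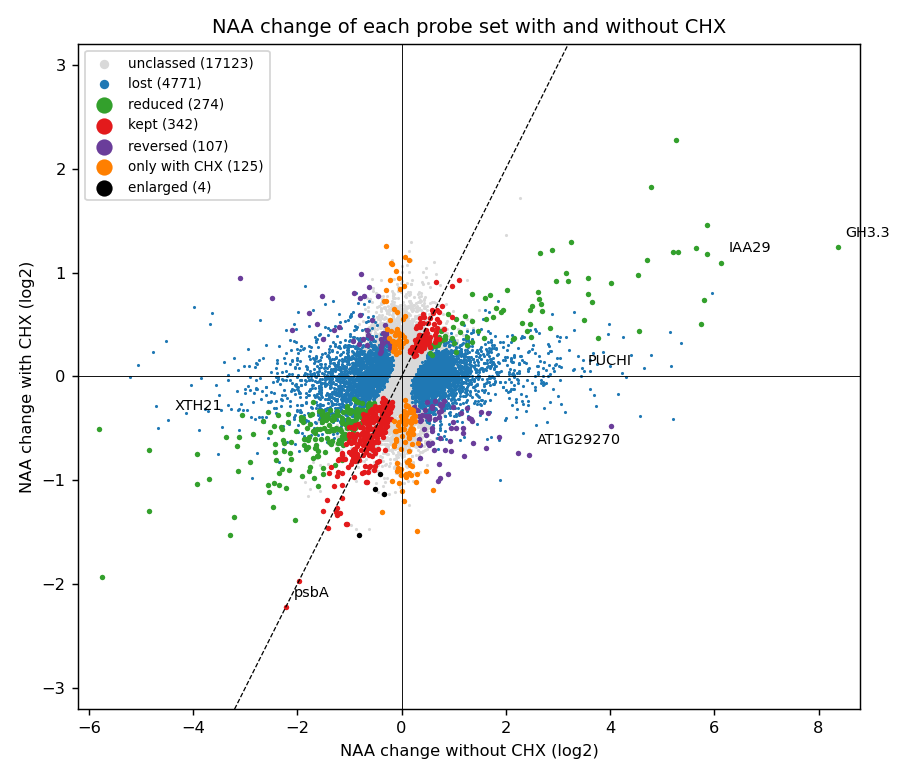
NAA change of each of the 22746 probe sets with CHX (vertical axis, log2) against its NAA change without CHX (horizontal axis, log2, on another scale), coloured by class, with the number of probe sets in the legend and a dashed line where both changes are equal. Lost responses lie along the horizontal line at 0, reduced responses such as GH3.3 and IAA29 lie between it and the dashed line, and kept responses such as psbA lie near the dashed line.

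None of the largest auxin responses was kept, and most were lost. Among 68 probe sets that NAA raised by at least 3 (log2) without CHX, 44 were lost, 23 reduced and 1 reversed. Among 52 that fell by at least 3, 37 were lost, 14 reduced and 1 reversed. Of the falls, 100 of 1607 under 0.5 were kept, 126 of 1684 between 0.5 and 1, 31 of 807 between 1 and 2, and 1 of 146, psbA, between 2 and 3. Of the rises, 56 of 1839 under 0.5 were kept, 27 of 1735 between 0.5 and 1, 1 of 539 between 1 and 2, and 0 of 140 between 2 and 3. The median NAA change with CHX was 0.29 for the 68 largest rises and -0.32 for the 52 largest falls, against 0.05 for the 1839 smallest rises and -0.04 for the 1607 smallest falls. In the same smallest bins 1122 rises and 894 falls were in no class.

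**Figure D2:**
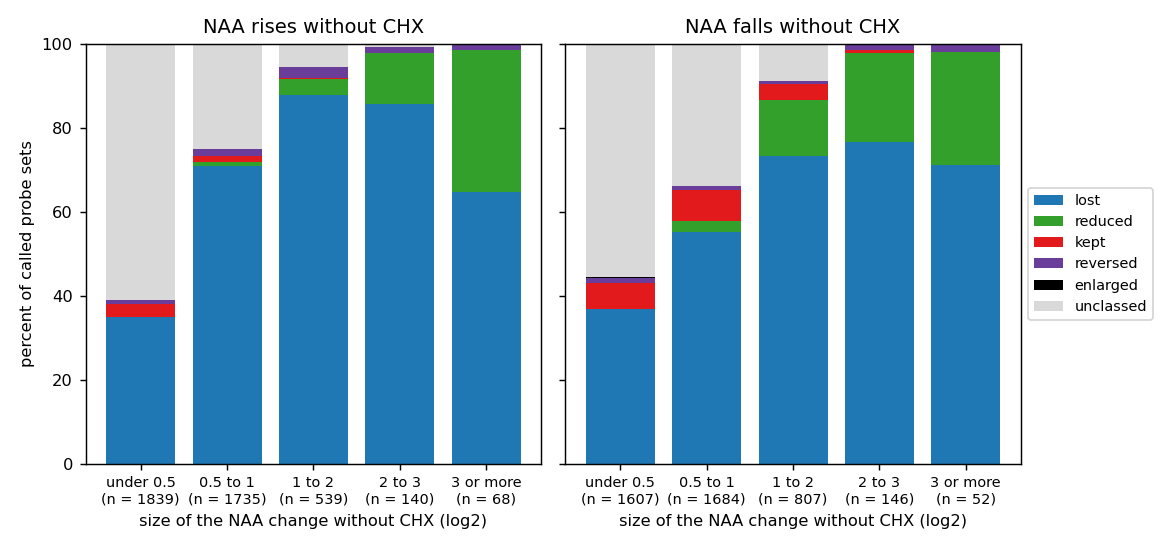
Classes of the probe sets that NAA raised (left) or lowered (right) without CHX, as percent of each size bin of the NAA change without CHX (log2). Lost responses make up 64.7% of rises and 71.2% of falls of 3 or more, and kept responses are absent there.

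Several early auxin genes had large rises that CHX reduced but did not abolish. The list of Aux/IAA repressors and GH3 enzymes, which join amino acids to auxin, had 12 measured members. With CHX, NAA raised 6 of them (1.31% over all probe sets) and lowered 1 (2.99%). Without CHX it raised 8 (19.0%) and lowered 0 (18.9%). The interaction was below 0 for 7 of 12 (12.6% over all probe sets) and above 0 for 0. The list's median interaction was -1.35, and its median NAA change was 0.43 with CHX and 1.98 without CHX.

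GH3.3, a GH3 enzyme, stood at 13.40, 13.03, 13.33 and 13.22 with NAA and CHX, against 11.97, 12.04, 11.94 and 12.05 with CHX. In the absence of CHX its levels were 14.59, 14.49, 14.39 and 14.49 with NAA, against 6.24, 6.22, 5.83 and 6.2 with neither. The NAA arrays lay above their counterparts in both cases without overlap. NAA raised GH3.3 by 1.24 with CHX (limma adjusted p 8.73e-08), which is 2.37-fold, and by 8.37 without CHX (limma adjusted p 6.97e-23), which is 331-fold. The interaction was -7.13 (SE 0.123, limma adjusted p 1.16e-18), the lowest of all probe sets. CHX without NAA raised GH3.3 by 5.88 over roots with neither.

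GH3.1 followed the same pattern with a smaller remainder. Its levels were 11.24, 11.11, 11.10 and 11.02 with NAA and CHX, against 10.76, 10.75, 10.48 and 10.45 with CHX, and 11.68, 11.50, 11.32 and 11.58 with NAA, against 6.04, 5.72, 5.65 and 5.65 with neither. NAA raised it by 0.50 with CHX (limma adjusted p 0.000641) and by 5.75 without CHX, with an interaction of -5.25 (SE 0.112, limma adjusted p 3.13e-17) and a CHX change of 4.85. WES1, the enzyme GH3.5, rose 1.97-fold with CHX and 23.1-fold without CHX (interaction -3.55, SE 0.119, limma adjusted p 2.3e-14). WES1 differed from GH3.1 and GH3.3 in its CHX change, which was 0.93. GH3.17 moved in opposite directions, as described with the reversed responses, and GH3.9 had NAA changes of 0.13 with CHX and 0.02 without CHX, neither called by limma (adjusted p 0.871 and 0.972).

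Among the Aux/IAA genes, IAA29 stood at 8.12, 8.05, 8.09 and 7.92 with NAA and CHX, against 6.74, 6.96, 6.88 and 7.26 with CHX. Its levels without CHX were 11.42, 11.38, 11.43 and 11.65 with NAA, against 5.02, 5.23, 5.34 and 5.74 with neither. IAA29 rose 2.13-fold with CHX and 70.4-fold without CHX, again with no overlap of arrays, and its interaction was -5.05 (SE 0.18, limma adjusted p 5.89e-14). IAA30, which lacks the degron of most of its family, rose by 0.90 with CHX and by 4.02 without CHX (interaction -3.12, limma adjusted p 1.54e-13). IAA18 rose by 1.95 without CHX only: with CHX its change was 0.16 (limma adjusted p 0.567) and the arrays overlapped. IAA20 was the member with the smallest difference among those that rose in both states. It stood at 8.69, 8.77, 8.21 and 8.54 with NAA and CHX, against 7.59, 7.22, 7.04 and 6.92 with CHX, and at 8.18, 8.43, 7.46 and 7.69 with NAA, against 5.82, 5.76, 6.39 and 5.79 with neither. NAA raised IAA20 by 1.36 with CHX (limma adjusted p 0.000143) and by 2.00 without CHX, and its interaction of -0.64 (95% interval -1.19 to -0.10) missed the threshold (limma adjusted p 0.0837). IAA31, IAA33 and IAA34 had no called NAA change in either state in limma, with values of -0.43 to 0.36 with CHX and -0.63 to 0.12 without CHX.

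**Figure D3:**
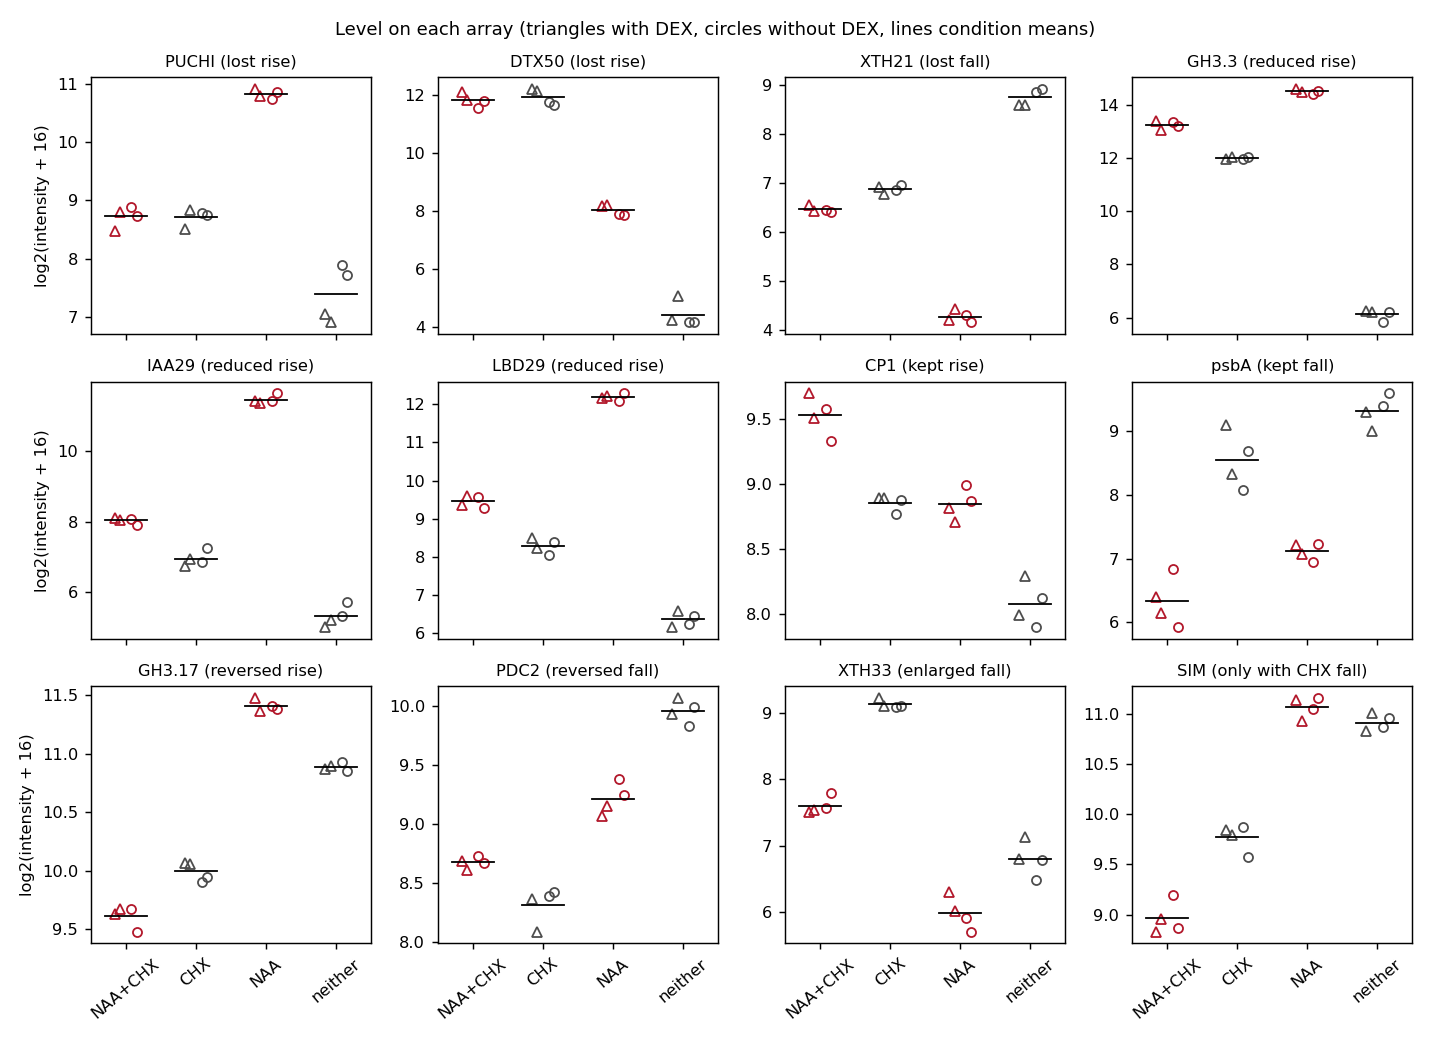
Level of 12 genes on each array, as log2(intensity + 16), in roots with NAA and CHX, with CHX, with NAA and with neither. Triangles are arrays with DEX, circles arrays without DEX, and lines the means of the 4 arrays, with each gene's class in its title. Each panel has its own vertical range, and DTX50 is AT5G52050.

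Some lateral root regulators had reduced or lost rises. LBD29, which helps start lateral roots, stood at 9.36, 9.60, 9.58 and 9.27 with NAA and CHX, against 8.49, 8.22, 8.03 and 8.37 with CHX. In roots without CHX it stood at 12.18, 12.23, 12.09 and 12.29 with NAA, against 6.15, 6.58, 6.23 and 6.43 with neither. It rose 2.26-fold with CHX and 57.8-fold without CHX, and its interaction was -4.68 (SE 0.153, limma adjusted p 1.62e-14). LBD16, its close partner in initiation, rose by 0.74 with CHX (limma adjusted p 0.000243) and by 2.63 without CHX, with an interaction of -1.89 (SE 0.149). Its levels of 9.88, 9.83, 9.24 and 9.34 with NAA and CHX overlapped those of 9.46, 9.11, 8.14 and 8.61 with CHX when the DEX states were joined, but not within either DEX state.

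PUCHI itself lost its rise. It stood at 8.47, 8.81, 8.88 and 8.74 with NAA and CHX, against 8.51, 8.84, 8.79 and 8.74 with CHX. Without CHX it stood at 10.92, 10.79, 10.74 and 10.86 with NAA, against 7.06, 6.91, 7.89 and 7.72 with neither. The NAA change with CHX was 0.00 (95% interval -0.29 to 0.30, limma adjusted p 0.996), against a rise of 3.44 without CHX. PUCHI's interaction was -3.43 (SE 0.199, limma adjusted p 8.11e-11), and was -3.91 with DEX and -2.95 without DEX. The arrays with both compounds and with CHX overlapped and stood between those with NAA and those with neither. Whether its probe set reads the fusion, the mutant gene or both was not tested. HAT2, an HD-Zip factor induced by auxin, rose by 1.68 without CHX and had a change of 0.28 with CHX (95% interval 0.09 to 0.47, limma adjusted p 0.0987), with an interaction of -1.41. The lateral root list, which also holds RALF-like peptides, had 17 measured genes. NAA raised 3 and lowered 3 of them with CHX (1.31% and 2.99% over all probe sets). It raised 5 and lowered 5 without CHX (19.0% and 18.9%). The interaction was below 0 for 5 (12.6% over all probe sets) and above 0 for 2 (11.9%), with a median of -0.01. Beside HAT2, LBD16, LBD29 and PUCHI, the interaction was below 0 for RALFL33, a secreted peptide of the RALF family, at -0.36. RALFL33 had no lost rise but a fall found only with CHX. Its NAA change was -0.27 with CHX (limma adjusted p 0.0468) and 0.08 without CHX (limma adjusted p 0.436).

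In the rest of the auxin machinery few genes were measured. YUC6, an enzyme of auxin synthesis, stood at 5.76, 5.93, 4.2 and 5.71 with NAA and CHX, against 5.92, 4.66, 5.71 and 5.62 with CHX, and at 4.38, 4.31, 4.37 and 4.36 with NAA, against 6.77, 6.90, 6.70 and 6.41 with neither. Its fall of -2.34 without CHX was lost, with a change of -0.08 with CHX (limma adjusted p 0.942). The YUC6 interaction was 2.26 (SE 0.445, limma adjusted p 0.000678). Its levels of 4.66 to 5.92 with CHX and no NAA were near the floor of 4, where a further fall is hard to read. In the arrays without DEX alone the interaction was 1.48 and not called (limma adjusted p 0.157). PID2, a kinase related to PINOID, lost a rise of 0.68, but its interaction of -0.78 was not called in 7 of the 16 fits that left out an array (highest limma adjusted p 0.0658). WAG2, another AGC kinase of auxin transport, had falls of -0.40 with CHX and -0.57 without CHX, and the call with CHX ended in 10 of the 16 such fits (highest limma adjusted p 0.163).

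The lost rises with the largest interactions differed widely in what CHX did without auxin. Over all 2512 lost rises, the median NAA change was -0.00 with CHX and 0.69 without CHX, and the median CHX change was 0.05, with quartiles of -0.65 and 0.98. AT5G52050 (DTX50, a MATE efflux carrier) stood at 12.12, 11.82, 11.56 and 11.80 with NAA and CHX, against 12.22, 12.13, 11.76 and 11.66 with CHX. In the absence of CHX its levels were 8.17, 8.23, 7.90 and 7.87 with NAA, against 4.25, 5.07, 4.18 and 4.19 with neither. CHX alone thus put DTX50 far above the level reached with NAA alone, and its NAA change with CHX was -0.12 (limma adjusted p 0.717). The interaction was -3.74 (SE 0.174, limma adjusted p 3.53e-12). AT1G30760 had the opposite arrangement, with 5.72, 4.85, 5.65 and 5.62 with NAA and CHX, against 5.84, 6.16, 5.92 and 5.46 with CHX. Its levels without CHX were 12.02, 11.89, 11.63 and 11.35 with NAA, against 6.55, 7.46, 7.24 and 7.33 with neither. Its interaction of -4.97 (SE 0.311, limma adjusted p 2.65e-10) came with CHX levels below those of roots with neither.

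AT4G37295 and AT4G37290, which neighbour each other in the TAIR10.1 gene table, both lost large rises. AT4G37295 rose 40.9-fold without CHX and had a change of 0.33 with CHX (limma adjusted p 0.082), with an interaction of -5.03. AT4G37290 rose by 4.3 without CHX and had -0.01 with CHX, with an interaction of -4.31. AT1G60010 held levels of 11.93, 11.89, 11.88 and 11.94 with NAA and CHX, against 11.82, 12.09, 11.79 and 11.82 with CHX, and 12.84, 12.72, 12.68 and 12.69 with NAA, against 8.28, 8.60, 8.49 and 8.61 with neither. For AT1G60010, roots with CHX, with or without NAA, thus lay nearer to the level with NAA alone than to that with neither. AT4G17350, AT1G73610, AT5G17340, AT3G09280 and AT5G52390 completed the 10 lost rises with the largest interactions, from -4.33 for AT1G73610 to -3.63 for AT5G52390. Their NAA changes with CHX were -0.17 to 0.38 and none was called by limma.

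Some lost rises belonged to rapid stress genes that CHX alone induced strongly. STZ, a zinc finger repressor also called ZAT10, stood at 14.57, 14.39, 14.42 and 14.48 with NAA and CHX, against 14.41, 14.46, 14.52 and 14.46 with CHX. In roots without CHX it stood at 8.55, 8.51, 8.28 and 8.62 with NAA, against 7.15, 7.28, 6.77 and 7.33 with neither. Its NAA change was 0.00 with CHX and 1.36 without CHX, with an interaction of -1.36 (SE 0.137, limma adjusted p 2.54e-07) and a CHX change of 7.33. STZ was among the brightest probe sets in all 8 arrays with CHX, and whether a further rise could be read at that intensity was not tested. WRKY53, a stress transcription factor, had an interaction of -1.12 beside a CHX change of 6.38, and CML41, a calmodulin-like protein, one of -0.85 beside 1.91, although the CML41 arrays with and without NAA overlapped in both CHX states. CML42 went the other way and lost a fall of -1.22, with an interaction of 1.34. Over the 10 measured rapid stress genes, 3 interactions were below 0 (12.6% over all probe sets) and 1 above 0 (11.9%), with a median interaction of -0.04 and a median CHX change of 3.18. EXO, a growth-related gene known from brassinosteroid responses, rose by 2.72 without CHX, and with CHX it had a change of 0.08 and a level of 13.79 ± 0.0467 with NAA and 13.72 ± 0.0601 without NAA (SD, n = 4 each). Among ubiquitin system genes, 22 were measured, with 4 interactions below 0 and 3 above 0 (12.6% and 11.9% over all) and a median of -0.00. The U-box ligases PUB23, PUB25 and PUB26 had interactions of -0.94, -0.90 and -1.22, and PUB23 still rose by 0.31 with CHX. PUB19, another U-box ligase, went the other way with an interaction of 0.78 (limma adjusted p 0.000447). Its NAA change was -0.17 with CHX and -0.95 without CHX.

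Further lost or reduced rises, chosen after their values were seen, included growth and signalling genes. BRL1, a receptor kinase of the brassinosteroid receptor family, had levels of 6.80, 5.69, 6.75 and 6.11 with NAA and CHX, against 6.22, 5.53, 6.02 and 5.82 with CHX, and 9.35, 9.40, 9.36 and 9.58 with NAA, against 6.99, 6.96, 6.32 and 7.13 with neither. Its rise of 2.57 without CHX was lost, with a change of 0.44 with CHX (limma adjusted p 0.362). CLE44, a precursor of a peptide that maintains vascular stem cells, still had a rise of 0.54 with CHX beside one of 3.5 without CHX. ATL63, a RING ubiquitin ligase, had an interaction of -3.23. Of 15 measured IQD genes, which encode calmodulin-binding scaffold proteins, 3 had an interaction below 0 (12.6% over all probe sets) and 4 above 0 (11.9%), with a median of 0.17: IQD24 lay at -2.49, IQD22 at -0.87 and IQD19 at 1.14.

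Some lost falls were near the floor with CHX already. Over the 2259 lost falls, the median NAA change was 0.01 with CHX and -0.74 without CHX, and the median CHX change was -0.67, with quartiles of -1.63 and 0.45. In 235 lost falls the mean level with CHX was under 6, close to the floor of the scale, against 141 of the lost rises. AT4G30450 lay close to that level and stood at 6.13, 6.09, 5.98 and 5.95 with NAA and CHX, against 6.40, 5.71, 5.91 and 6.15 with CHX. Without CHX it stood at 5.84, 5.97, 6.24 and 6.18 with NAA, against 11.34, 11.26, 11.21 and 11.26 with neither. The change was -5.21 with NAA alone and -5.23 with CHX alone, and both together took it no lower (NAA change with CHX -0.00, 95% interval -0.30 to 0.30). Its interaction was 5.21 (SE 0.202, limma adjusted p 2.35e-13). AT4G30460, its neighbour in the gene table, had an interaction of 4.18 beside a CHX change of -3.54.

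XTH21, a xyloglucan endotransglucosylase/hydrolase that remodels hemicellulose, was a lost fall at a measurable level. It stood at 6.54, 6.43, 6.44 and 6.41 with NAA and CHX, against 6.92, 6.77, 6.86 and 6.96 with CHX, and at 4.18, 4.42, 4.3 and 4.15 with NAA, against 8.60, 8.60, 8.87 and 8.92 with neither. The arrays with NAA alone were near the floor, and those with both compounds were well above them. XTH21 changed by -0.42 with CHX (95% interval -0.72 to -0.13, limma adjusted p 0.107) and by -4.49 without CHX, with an interaction of 4.06 (SE 0.201, limma adjusted p 8.07e-12). AT2G34610, AT1G19900, AT3G45680, AT3G53980, AT2G25150, AT2G41810 and AT1G49470 completed the 10 lost falls with the largest interactions, from 4.65 for AT2G34610 to 3.3 for AT1G49470. Their CHX changes ranged from -6.33 for AT3G53980 to -1.97 for AT1G19900.

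Cell wall genes went in both directions. Among 27 expansins and XTH genes, the interaction was above 0 for 9 (11.9% over all probe sets) and below 0 for 6 (12.6%), with a median of 0.04 and a range of -2.45 to 4.06. With CHX, NAA raised 1 (1.31% over all probe sets) and lowered 4 (2.99%) of them. Without CHX it raised 5 (19.0%) and lowered 12 (18.9%). EXPB1, a beta-expansin that loosens walls, stood at 10.60, 10.34, 10.58 and 10.62 with NAA and CHX, against 10.30, 11.07, 10.85 and 11.01 with CHX, and at 5.40, 6.35, 6.52 and 6.09 with NAA, against 9.34, 9.24, 9.10 and 9.0 with neither. EXPB1 changed by -3.08 without CHX, whereas its change with CHX was -0.27 (limma adjusted p 0.517) at levels above those of roots with neither. EXPA20 and EXPA4, alpha-expansins, lost rises of 2.28 and 1.70, and XTH32 lost a fall of -2.30. Among 30 genes of wall synthesis and O-acetylation the interaction was above 0 for 8 (11.9% over all probe sets) and below 0 for 1 (12.6%). The median was 0.34. NAA raised 1 and lowered 5 of these 30 with CHX (1.31% and 2.99% over all probe sets). It raised 1 and lowered 14 without CHX (19.0% and 18.9%). TBL21 (interaction 2.04), TBL38 (1.15) and TBL28 (0.77) had falls that were lost or reduced, and TBL36 (-0.99) lost a rise.

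Genes of conjugation and redox metabolism supplied many lost falls. Of 60 measured glutathione transferases and UDP-glycosyltransferases, the interaction was above 0 for 18 (11.9% over all probe sets) and below 0 for 7 (12.6%), with a median of 0.34 (-0.00 over all). With CHX, NAA raised 1 (1.31% over all probe sets) and lowered 5 (2.99%). Without CHX it raised 6 (19.0%) and lowered 26 (18.9%). Of the 60 genes, 14 had a lost fall (9.93% over all probe sets). UGT74B1, a glucosyltransferase of glucosinolate synthesis, stood at 8.96, 9.10, 9.07 and 9.06 with NAA and CHX, against 9.05, 8.89, 9.10 and 9.29 with CHX. In the absence of CHX its levels were 9.51, 9.38, 9.59 and 9.65 with NAA, against 11.26, 11.44, 11.43 and 11.40 with neither. NAA changed UGT74B1 by -0.04 with CHX and by -1.85 without CHX, and its interaction was 1.81 (SE 0.101, limma adjusted p 4.47e-11). GSTU18, a tau glutathione transferase, and UGT84A1, which acts on hydroxycinnamic acids, had interactions of 1.80 and 1.81. CHX without NAA changed UGT84A1 by -3.81. Its means of 6.28 with NAA and CHX and 6.15 with CHX were not far above the floor, where a further fall is hard to read. GSTU28 still had a fall of -0.58 with CHX (limma adjusted p 0.0361) beside one of -3.37 without CHX, and GSTU26 one of -0.60 beside -1.85. GSTU16 had the opposite sign, with an interaction of -1.37.

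Of 4 measured MSRB genes, which encode methionine sulfoxide reductases and were picked after their values were seen, 3 lost a fall, with an interaction above 0 (11.9% over all probe sets). MSRB9 stood at 14.66, 14.57, 14.49 and 14.55 with NAA and CHX, against 14.49, 14.57, 14.57 and 14.54 with CHX, and at 10.13, 10.28, 10.22 and 10.38 with NAA, against 12.37, 12.36, 12.41 and 12.29 with neither. MSRB5 stood at 6.23, 6.04, 6.16 and 5.75 with NAA and CHX, against 6.23, 6.14, 6.11 and 4.70 with CHX, and at 11.14, 11.16, 10.90 and 10.998 with NAA, against 13.10, 13.20, 13.14 and 13.22 with neither. The interactions were 2.14 for MSRB9, 2.36 for MSRB5 and 2.13 for MSRB6, and CHX without NAA raised MSRB9 by 2.18 and changed MSRB5 by -7.37. With CHX, MSRB5 was near the floor, where a further fall is hard to read, and MSRB9 was among the brightest probe sets. MSRB6 lay between these limits, at means of 9.75 with NAA and CHX and 9.88 with CHX. BCAT4, an aminotransferase at the start of aliphatic glucosinolate synthesis, changed by -0.41 with CHX and -2.82 without CHX, with an interaction of 2.41. TPS-CIN, a terpene synthase that makes cineole, changed by 0.87 with CHX (limma adjusted p 0.0582) and -1.85 without CHX. SWEET14, a sugar transporter, and ACT11, an actin, lost falls of -1.74 and -1.96 with interactions of 1.71 and 1.80, and CHX alone raised each of them by 1.85.

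Microtubule genes, also listed after their values were seen, had 10 interactions above 0 (11.9% over all probe sets) and 3 below 0 (12.6%) among 28, with a median of 0.34. TUB1, a beta-tubulin, stood at 8.0, 7.90, 8.19 and 7.93 with NAA and CHX, against 8.60, 8.52, 8.49 and 9.05 with CHX, and at 9.58, 9.65, 9.68 and 9.56 with NAA, against 11.34, 11.29, 11.22 and 11.15 with neither. The TUB1 fall was -0.66 with CHX and -1.63 without CHX, a reduction with an interaction of 0.97 (SE 0.143, limma adjusted p 3.1e-05). SP1L4, a SPIRAL1-like protein of cortical microtubules, was reduced less, with changes of -1.06 with CHX and -1.59 without CHX.

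AT4G25250 had the largest reduced fall among named genes. It stood at 4.92, 5.71, 5.74 and 4.33 with NAA and CHX, against 7.18, 6.96, 7.18 and 7.09 with CHX, and at 4.18, 5.46, 4.44 and 4.70 with NAA, against 10.63, 10.40, 10.48 and 10.24 with neither. Its NAA change was -1.93 with CHX (limma adjusted p 0.000219) and -5.74 without CHX, with an interaction of 3.81 (SE 0.385). The arrays with NAA were all under 6 in both CHX states, near the floor of 4. AT3G01260 and AT5G04120 were the other reduced falls with large interactions, 3.18 and 2.88, beside falls of -0.75 and -1.04 with CHX.

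Kept responses were mostly falls, and plastid-encoded transcripts formed a group among them that was chosen after the values were seen. Of 69 such genes, NAA lowered 23 with CHX (2.99% over all probe sets) and 39 without CHX (18.9%). It raised 0 with CHX (1.31% over all probe sets) and 1 without CHX (19.0%). Of the 69 genes, 22 were kept falls, a class that held 258 probe sets (1.13% of all tested). The interaction was called for 1 of 69, rpl22 at 0.28 (11.9% over all probe sets in that direction). The median NAA change was -0.43 with CHX and -0.48 without CHX, and the median interaction was -0.01. psbA, the D1 protein of photosystem II, stood at 6.40, 6.15, 6.83 and 5.92 with NAA and CHX, against 9.10, 8.33, 8.08 and 8.69 with CHX. Its levels without CHX were 7.22, 7.08, 6.95 and 7.22 with NAA, against 9.30, 9.0, 9.40 and 9.60 with neither. It fell 4.67-fold with CHX (limma adjusted p 1.43e-06) and 4.62-fold without CHX, and its interaction was -0.02 (95% interval -0.61 to 0.58).

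Some subunits of the plastid ATP synthase fell in both CHX states. atpH changed by -1.32 with CHX and -1.18 without CHX, and atpF by -1.43 and -1.04. atpA changed by -0.79 and -0.93, and atpE by -0.33 and -0.38. The atpE call with CHX ended in 2 of 16 fits without an array (highest limma adjusted p 0.0548). atpB, with -0.22 and -0.19, and atpI, with -0.16 and -0.09, had no called NAA change in limma. The atpI means were 4.98 to 5.64, near the floor. rpoC2, a subunit of the plastid RNA polymerase, changed by -0.97 and -0.92, and psaI of photosystem I by -0.71 and -0.77. rbcL, the large subunit of Rubisco, had changes of -0.15 and -0.14, neither called by limma (adjusted p 0.531 and 0.346). Plastid-encoded transcripts lack the poly(A) tail on which 3' array labelling relies, and the probe set for 25S ribosomal RNA, another RNA of that kind, moved with NAA as well. Its intensity was 7195 to 7609 with NAA and CHX and 8368 to 10110 with CHX, and 10091 to 11379 with NAA and 11773 to 13890 with neither. The ranges with and without NAA did not overlap in either CHX state, and the part of priming or labelling in the plastid falls was not tested.

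**Figure D4:**
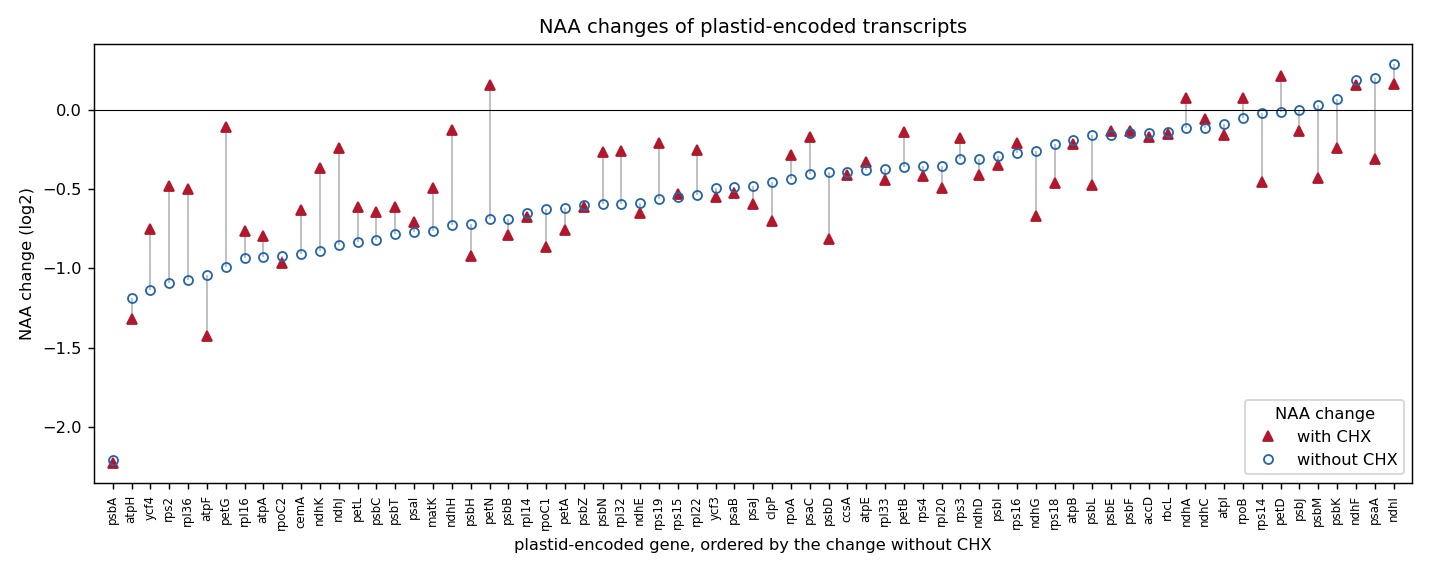
NAA change (log2) of the 69 measured plastid-encoded genes with CHX (filled triangles) and without CHX (open circles), ordered by the change without CHX. Most pairs lie below 0 in both states, from psbA at about -2.2 in both to genes near 0.

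Of 15 measured transcripts with mitochondrial gene symbols, also listed after their values were seen, NAA lowered 3 with CHX (2.99% over all probe sets) and 5 without CHX (18.9%), and no interaction was called by limma. nad5, a subunit of respiratory complex I, stood at 5.74, 5.83, 6.54 and 6.12 with NAA and CHX, against 7.61, 7.39, 7.86 and 7.22 with CHX, and at 6.40, 6.29, 7.03 and 7.17 with NAA, against 8.51, 7.63, 8.13 and 8.26 with neither. Its NAA changes of -1.46 with CHX and -1.41 without CHX differed by -0.05, and its probe set may also match related sequences. AT2G07695, whose probe set may match related sequences as well, had the falls closest to equal among the named genes. They were -1.97 with CHX and -1.97 without CHX (interaction -0.00, 95% interval -0.41 to 0.41).

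Kept falls of nuclear genes included those of the 2 measured root hair expansins and of single genes of other kinds. EXPA7, a root hair expansin, stood at 9.03, 9.0, 9.24 and 8.97 with NAA and CHX, against 9.43, 9.55, 9.90 and 9.75 with CHX, and at 9.20, 9.30, 9.05 and 9.22 with NAA, against 9.61, 10.10, 9.70 and 9.93 with neither. Its falls were -0.60 with CHX (limma adjusted p 0.0025) and -0.64 without CHX. EXPA18, the other measured root hair expansin, changed by -0.39 and -0.69. The EXPA18 call with CHX ended without CHX replicate 2 at -0.38 (limma adjusted p 0.0516), without NAA+CHX replicate 2 at -0.30 (0.0823) and without NAA+DEX+CHX replicate 2 at -0.35 (0.0678). UPB1, a bHLH regulator of reactive oxygen in the root tip, changed by -0.81 with CHX and -0.43 without CHX. PLIM2b, an actin-bundling LIM protein, changed by -0.72 and -0.69, and HRGP1, a hydroxyproline-rich wall protein, by -0.70 and -0.68. The HRGP1 probe set may also match related sequences. The HRGP1 values join unlike DEX states: its interaction was 0.56 with DEX and -0.60 without DEX, and in the arrays with DEX alone its NAA change with CHX was -0.21 (limma adjusted p 0.483). AT3G59130, AT3G49930 and AT1G23160 had kept falls of -0.93, -0.88 and -1.29 with CHX, and of -1.40, -1.35 and -1.50 without CHX. With a pseudocount of 1 the AT3G59130 change with CHX was -0.98 and not called (limma adjusted p 0.0879). Among the 5 green tissue markers the interaction was above 0 for 2 (11.9% over all probe sets) and below 0 for 0, and 3 were in no class. The fall of PORB, an enzyme of chlorophyll synthesis, was lost (interaction 0.86, limma adjusted p 0.00772), as was that of RCA (0.43), whose call ended in 8 of 16 fits without an array. LHCB4.2, an antenna protein, changed by -0.52 with CHX, which was not called, and by -0.49 without CHX.

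Kept rises were few and small, the largest being 1.10 without CHX. CP1, a papain-type cysteine protease, stood at 9.70, 9.51, 9.58 and 9.34 with NAA and CHX, against 8.89, 8.89, 8.77 and 8.88 with CHX, and at 8.81, 8.71, 8.99 and 8.87 with NAA, against 7.99, 8.29, 7.90 and 8.12 with neither. NAA raised CP1 by 0.67 with CHX (limma adjusted p 0.000236) and by 0.77 without CHX, and the interaction of -0.10 had a 95% interval of -0.38 to 0.19. WRKY6, a transcription factor of phosphate and senescence responses, rose by 0.41 and 0.44, although CHX without NAA raised it by 3.04. PAC, a plastid protein required for chloroplast RNA processing, rose by 0.57 and 0.43, AT1G51580 by 0.56 and 0.68, and AT1G33612 by 0.47 and 0.67. The calls with CHX of AT1G22420, AT1G64050 and AT3G21660 ended in 12, 14 and 14 of 16 fits without an array, and that of WRKY22 in 7, at 0.38. The total of kept responses depended on NAA+CHX replicate 2, without which it was 223 instead of 342.

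NAA acted in opposite directions in 107 probe sets, and the number fell to 62 without NAA+CHX replicate 2 and to 71 without CHX replicate 2. Among the reversed rises, AT1G29270 stood at 5.87, 6.10, 5.43 and 5.94 with NAA and CHX, against 6.46, 6.72, 6.52 and 6.67 with CHX. In roots without CHX it stood at 10.82, 10.88, 10.49 and 10.64 with NAA, against 8.44, 8.10, 8.24 and 8.25 with neither. NAA changed it by -0.76 with CHX (limma adjusted p 0.00136) and by 2.45 without CHX, and the arrays did not overlap in either state. GH3.17, an auxin-conjugating enzyme, stood at 9.63, 9.68, 9.67 and 9.48 with NAA and CHX, against 10.07, 10.06, 9.91 and 9.95 with CHX, and at 11.47, 11.36, 11.40 and 11.38 with NAA, against 10.87, 10.89, 10.93 and 10.85 with neither. Its changes were -0.38 with CHX (limma adjusted p 0.000532) and 0.52 without CHX, so it differed in sign from GH3.1, GH3.3 and WES1 with CHX (interaction -0.90, SE 0.0828). SKU5, a cell surface protein of directional root growth, changed by -0.26 and 0.75, P1R3 by -0.71 and 0.96, and AT2G18980 by -1.01 and 0.70. AT2G37130, AT3G50010 and AT1G19540 had changes with CHX of -0.84, -0.60 and -0.98, beside rises of 0.71 to 0.74 without CHX.

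Among the reversed falls, AT2G36950 stood at 11.95, 12.06, 11.76 and 11.92 with NAA and CHX, against 11.47, 11.59, 11.37 and 11.46 with CHX, and at 7.36, 7.65, 7.63 and 7.64 with NAA, against 9.81, 9.64, 9.44 and 9.81 with neither. It rose by 0.45 with CHX and changed by -2.10 without CHX, with an interaction of 2.55 (SE 0.125, limma adjusted p 7.21e-12). PDC2, a pyruvate decarboxylase of fermentation, stood at 8.69, 8.61, 8.73 and 8.67 with NAA and CHX, against 8.36, 8.09, 8.39 and 8.42 with CHX, and at 9.06, 9.16, 9.38 and 9.25 with NAA, against 9.93, 10.07, 9.83 and 10.00 with neither. PDC2 thus rose by 0.36 with CHX (limma adjusted p 0.0163) and fell without CHX (-0.74). XTH19 rose by 0.49 with CHX beside a change of -0.32 without CHX, and OSM34, an osmotin-like defence protein, by 0.54 beside -0.56. AT1G23120, AT1G78460 and AT3G62280 rose by 0.86, 0.75 and 0.40 with CHX, beside changes of -0.62, -0.79 and -0.63 without CHX.

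Enlarged responses were the rarest class, with 4 falls and 0 rises, and the number was 7 without NAA+CHX replicate 1. XTH33, the only one with a gene name, stood at 7.51, 7.54, 7.56 and 7.80 with NAA and CHX, against 9.22, 9.11, 9.09 and 9.10 with CHX, and at 6.30, 6.02, 5.91 and 5.71 with NAA, against 6.80, 7.14, 6.48 and 6.79 with neither. CHX raised XTH33 by 2.32 in the absence of NAA, and NAA lowered it 2.88-fold with CHX and 1.76-fold without CHX (interaction -0.71, SE 0.198, limma adjusted p 0.0113). With a pseudocount of 1 the XTH33 interaction was -0.60 (limma adjusted p 0.0749). The other members, which the annotation leaves unnamed and which were looked at after their values were seen, had interactions of -0.79, -0.59 and -0.52.

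Responses found only with CHX included SIM, the cyclin-dependent kinase inhibitor SIAMESE. SIM stood at 8.83, 8.96, 9.20 and 8.86 with NAA and CHX, against 9.84, 9.79, 9.87 and 9.57 with CHX, and at 11.13, 10.92, 11.05 and 11.16 with NAA, against 10.82, 11.002, 10.87 and 10.96 with neither. It changed by -0.81 with CHX (limma adjusted p 8.24e-06) and by 0.15 without CHX (limma adjusted p 0.184), with an interaction of -0.96 (SE 0.121, limma adjusted p 4.83e-06). AT4G30400 (-1.06) and AT2G29340 (-1.03) were likewise measurable in all conditions. AT4G17470, with an interaction of -1.79, stood at 5.51, 4.67, 5.73 and 5.08 with NAA and CHX, against 6.25, 6.63, 7.12 and 6.94 with CHX, and at 4.79, 4.77, 4.76 and 4.29 with NAA, against 4.29, 4.3, 4.11 and 4.70 with neither. It lay near the floor of 4 without CHX, where no fall could be read, and CHX without NAA raised it by 2.39. AT4G03940 (-1.24) and AT3G25490 (-1.03) were also close to the floor in roots with neither, at means of 4.64 and 4.23. Among the rises AT2G07721 stood at 5.91, 5.98, 5.64 and 5.73 with NAA and CHX, against 4.36, 4.26, 4.32 and 5.29 with CHX, and at 5.23, 5.20, 4.87 and 4.83 with NAA, against 5.59, 5.06, 5.23 and 5.44 with neither. The AT2G07721 interaction was 1.55 (SE 0.328, limma adjusted p 0.00133), and that of AT1G36590 was 1.00. With a pseudocount of 1 the AT1G36590 interaction was 2.31 and no longer called (limma adjusted p 0.073), and its means without CHX were 4.18 with NAA and 4.24 with neither. The AT1G36590 probe set may also match related sequences. CYTC-2, a cytochrome c, and BZIP53, a bZIP factor of amino acid metabolism, rose by 0.40 and 0.26 with CHX and had changes of -0.03 and -0.12 without CHX. The interaction calls of AT1G73050, AT4G17660, AT5G03360 and AT3G24000 ended in 12, 11, 8 and 7 of 16 fits without an array, and that of NERD, a factor of RNA-directed DNA methylation, in 9. The class held 125 probe sets, and 76 without NAA+CHX replicate 2.

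Small lists gave few calls, against shares over all probe sets of 12.6% below 0 and 11.9% above 0. Of 4 measured cell cycle genes, the mitotic kinases AUR1 and AUR3 lost rises of 0.43 and 0.64, with interactions of -0.43 and -0.65, that of AUR3 not called in 11 of 16 fits without an array. Of 7 histone genes 1 had a called interaction, HTB11 at 0.27, which ended in 7 of 16 such fits. Of 6 cytokinin response genes, RR16 lost a fall of -1.44, with an interaction of 1.12 that ended in 10 of 16 fits. MYC3, a jasmonate regulator, had an interaction of 0.84, WRKY20 one of -0.41, bHLH115 one of 0.33, and bHLH121, which ended in 13 of 16 fits, one of -0.33.

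The sign of the called interactions was nearly always shared by roots with and without DEX. The interaction differed between the DEX states for 3 of 22746 probe sets (0.0132%), and 1116 had an unadjusted p under 0.05 in limma. In each fit that left out 1 array the number was 0 or 1. Of the interactions called below 0 in the 8 arrays with DEX alone, 1593 in number, 98.4% had the same sign in the 8 arrays without DEX, and of the 1541 above 0, 96.8%. In the other direction, 98.0% of 1452 below 0 and 98.2% of 1267 above 0 called without DEX had the same sign with DEX. Fewer were called in both sets of arrays. They made up 63.8% (below 0) and 57.4% (above 0) of those called with DEX, and 70.0% and 69.85% of those called without DEX. Across all probe sets r between the interactions with and without DEX was 0.683, and the arrays behind them are not shared. GH3.3 had -7.10 with DEX and -7.15 without DEX, IAA29 -5.04 and -5.06, and XTH21 3.93 and 4.19. AT4G21780, of which the annotation gives no more than the locus, was the named exception at -1.91 with DEX and 1.18 without DEX (limma adjusted p 0.0402 for the difference).

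**Figure D5:**
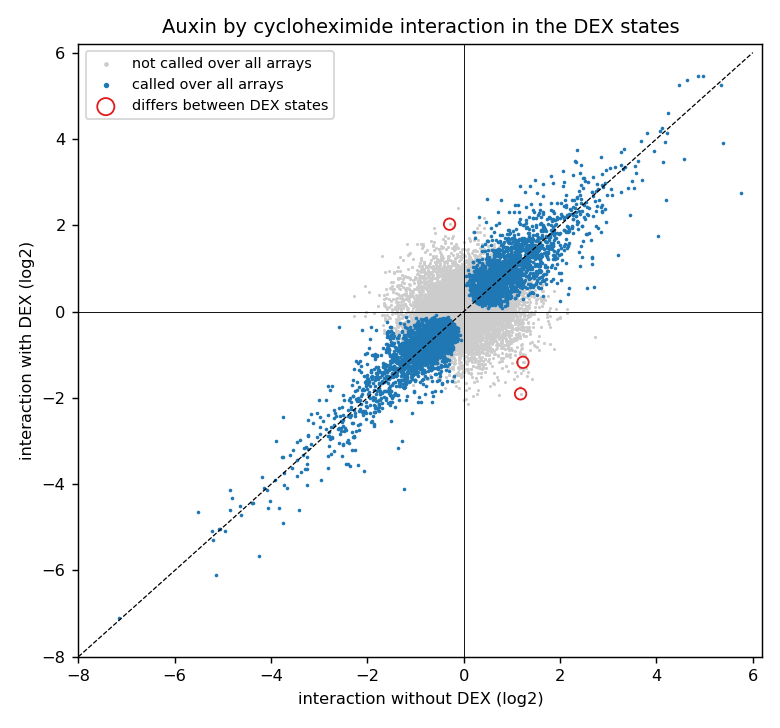
Interaction of NAA and CHX (log2) in the 8 arrays with DEX (vertical axis) against the 8 arrays without DEX (horizontal axis), 1 point per probe set, with interactions called over all 16 arrays in blue and a dashed line where both are equal. The 3 circled probe sets differ between the DEX states and lie away from the line.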

How the data were processed

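RNA of the 16 root samples was labelled and hybridised to 3' expression arrays. The deposited values were intensities on a linear scale, processed by the authors with Affymetrix Expression Console 1.3 per the submitters' processing notes; which summarisation algorithm was run is not given in these sources. The 2% trimmed mean was 500 on every array, so the intensities were taken as scaled already and log2(intensity + 16) of the deposited values was fitted without further normalization. All columns were used, with 0 left out. Of 22810 probe sets, 64 controls were left out and 22746 tested; 13513 carried 1 gene, 503 several and 8730 none, and 13436 symbols were updated through the TAIR10.1 gene table.

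The model in limma 3.58.1 (R 4.3.3, variance trend) had NAA, CHX and their interaction with DEX as a block, on 11 residual and 8.22 prior degrees of freedom. P-values were adjusted by Benjamini-Hochberg over all tested probe sets, called under 0.05, and intervals are 95%. The scripts were tested on simulated data. Separate cultures are not stated, so p-values measure only the spread between these samples, which may be technical. The number of arrays limits the precision. Deviations of samples with the same replicate number correlated at -0.0464 to 0.0643, so the numbers were not taken as pairs. Alternatives were pseudocounts of 1 and 64, the brightest 60% of probe sets, quantile normalization, no variance trend, a mean for each of the 8 groups, a replicate block, each DEX state alone, a 2-fold minimum and each array left out in turn; agreement of sign on the linear scale was added after the data were seen.

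Members and lists were chosen with earlier results of these data known. Named genes had 1 annotated gene and, except CML41, LBD16, CLE44, OSM34, psaI, rpl22 and atpA, arrays with and without NAA that did not overlap wherever an NAA change was called. They were the 10 lost rises and 10 lost falls and the 4 reduced, 6 enlarged and 6 only-with-CHX responses in each direction with the largest interaction, the 6 kept ones in each direction with the largest NAA change without CHX, the 6 reversed ones in each direction by the smaller of both changes, at most 4 members a list with a called interaction, and PUCHI. Genes named beyond that rule were chosen after their values were seen: GH3.17, IAA18, IAA20, MSRB5, MSRB6, MSRB9, BCAT4, SWEET14, ACT11, TPS-CIN, EXPA4, EXO, ATL63, BRL1, IQD19, IQD22, IQD24, CLE44, TUB1, SP1L4, GSTU16, GSTU26, GH3.9, IAA30, IAA31, IAA33, IAA34, LBD16, HAT2, RALFL33, EXPA7, EXPA18, UPB1, PLIM2b, HRGP1, WAG2, WRKY6, WRKY22, PAC, SKU5, OSM34, NERD, BZIP53, CYTC-2 and the plastid genes. The plastid, mitochondrial, microtubule, MSRB and IQD lists were likewise made after values were seen.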

Additional observations from a re-analysis of the deposited data

Results flagged for a closer look

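The interaction of NAA and CHX differed between the DEX states, by the test of that difference in limma, for 3 probe sets. For AT4G21780 the interaction with DEX minus that without DEX was -3.09. The other differences were 2.32 and -2.41, in probe sets that carry no gene name in the annotation used. The number of such probe sets was 7 with a pseudocount of 1 and 0 with a pseudocount of 64.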

How the results depend on the processing

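The interaction was called below 0 for 2856 and above 0 for 2700 probe sets. With the replicate number as a block, the counts were 2839 and 2681. Fewer arrays gave fewer calls: 1593 and 1541 with DEX alone, and 1452 and 1267 without DEX alone. With DEX alone the classes held 2906 lost, 50 reduced, 70 kept, 2 enlarged, 10 reversed and 23 responses only with CHX. Without DEX alone they held 2504 lost, 53 reduced, 62 kept, 2 enlarged, 13 reversed and 23 only with CHX. With a 2-fold minimum, 787 interactions lay below 0 and 876 above 0, with 1401 lost, 126 reduced, 446 kept, 0 enlarged, 67 reversed and 23 only with CHX. That minimum applied to the interaction only, so a kept response could there have a called interaction under 2-fold. The 446 are therefore not kept by the same definition as in the main fit. A pseudocount of 64 gave 7 enlarged responses, and no variance trend gave 63 reversed; the cause was not tested. The interaction differed between DEX states for 7 probe sets with a pseudocount of 1 and 0 with one of 64. Leaving out each array in turn gave 2605 to 2776 interactions below 0 and 2462 to 2622 above 0. The same fits gave 4360 to 4667 lost, 199 to 275 reduced, 223 to 331 kept, 3 to 7 enlarged, 62 to 106 reversed and 76 to 125 responses only with CHX, and 0 to 1 differences between DEX states. Over 146 single-gene results and all alternatives, 3394 of 3730 comparisons kept direction and call, 336 lost the call and 0 changed direction.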
